A study of Rattus norvegicus with 8 samples.

Results

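Folate one-carbon metabolism carries single carbons on tetrahydrofolate between serine, formate, purines, thymidylate and methionine. The 8 enzymes described here were chosen by name: Mthfd1, Shmt1 and Aldh1l1 of the cytosol, Mthfd2, Shmt2 and Mthfd1l of the mitochondrion, and Tyms and Mtr, which spend the carried carbon on thymidylate and on methionine. All 8 had a row among the 27742 rows of the gene table. Tyms alone had a further row, and the row with the higher mean over the 8 libraries was used. The list was put together with the group difference of these libraries already known, so the differences of its members are given as a description and carry no test.

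The libraries came from thoracic aorta of male wild type Sprague Dawley rats, given as 12 weeks old and, in the same labels, as weighing 180 to 200 g. The nitroglycerin group (4 libraries) was dosed with glyceryl trinitrate, a nitrate drug that relaxes vessels: 3 subcutaneous doses of 100 mg/kg daily, over 3 days. The series' title calls the aorta of these rats nitroglycerin tolerant. The control group (4 libraries) was given ethanol, the vehicle, on the same schedule. RNA was depleted of ribosomal RNA and sequenced, and values are FPKM (fragments per length of transcript and per size of the library), which can be set side by side between genes because they are per length. Nothing in the labels ties a library to its own rat, so errors and p-values measure the spread between these libraries, which may be technical.

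The pathway runs as a loop between compartments. In the mitochondrion, Shmt2 moves a carbon from serine to tetrahydrofolate, Mthfd2 oxidises it and Mthfd1l releases it as formate. In the cytosol, Mthfd1 takes formate back onto tetrahydrofolate and hands it on to purine synthesis, to Tyms or, after reduction, to Mtr. In vascular biology the pathway is known mainly through homocysteine, which Mtr converts to methionine.

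The aligned sequence was 6.77 to 8.39 Gb in nitroglycerin libraries and 7.48 to 8.86 Gb in control libraries. Smooth muscle markers were abundant, with Myh11 at 108 to 159 FPKM in nitroglycerin libraries and 142 to 169 FPKM in controls, but the list was mixed. Of its 7 markers with a row, 3 had a higher and 4 a lower mean, with Lmod1 above every control and Myl9 below every control, and 6 of 7 were below 0 after rescaling. The summed FPKM of 6 fibroblast markers, most of it Col1a1, was 1404 to 1528 with nitroglycerin and 1699 to 2470 in controls, without overlap. That list was mixed too: 2 of its markers, Col1a1 among them, had a lower mean with nitroglycerin and 4 a higher one. The part of either list in the results below was not tested. Nitroglycerin replicate 1 stood apart in fat markers: its summed FPKM over 10 adipocyte markers was 162, against 23.6 to 29.8 in the other nitroglycerin libraries and 9.57 to 30.2 in controls. The skeletal muscle marker Ckm fell to 5.06 ± 1.35 FPKM with nitroglycerin, against 9.78 ± 0.825 FPKM in controls (SD, n = 4 each; limma adjusted p = 0.0492, or 0.0351 with rescaled libraries). Its list was split: of 7 skeletal muscle markers with a row, 3 had a higher and 4 a lower mean. Besides Ckm, which lay below every control, 1 marker lay above every control. The whole table was shifted towards nitroglycerin: over 12977 tested rows (those reaching 1 FPKM in 4 libraries or more) the median difference in log2(FPKM + 1) was 0.30, and 86.6% of rows were above 0. The differences of the 8 enzymes are therefore also given after rescaling the libraries by median-of-ratios factors, which brought that median to 0.012.

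All 8 enzymes had a higher mean in the nitroglycerin libraries, by 1.20 times for Mtr up to 2.57 times for Aldh1l1. In 4 of them (Mthfd1, Mthfd1l, Shmt2 and Aldh1l1) every nitroglycerin library lay above every control library. Of these, Mthfd1 and Shmt2 were among the 5 enzymes tested, where 24.2% of all tested rows had this layout, and Mthfd1l and Aldh1l1 were among the 3 under the filter, where 3.96% of rows did. Shares under the filter are over 14765 rows, were not matched for level, and can differ from those of rows as abundant as these enzymes. After rescaling the layout held in 2, Mthfd1 (3.78% of tested rows) and Mthfd1l (1.19% of rows under the filter). Over the 5 tested enzymes (Mthfd1, Mthfd2, Shmt2, Tyms and Mtr), each of which exceeded 1 FPKM in all 8 libraries, the median difference was 0.39 as deposited and 0.14 after rescaling, and over all 8 it was 0.34 and 0.15. Mthfd1 was the 1 member of 5 among the 175 rows called by limma at a Benjamini-Hochberg adjusted p under 0.05 (1.35% of rows, 1.29% in the same direction), and none was called after rescaling (0.131% of rows, 0.0308% in the same direction); since the members were chosen with this contrast known, nothing is read from these counts. In bulk tissue, a change in RNA per cell and a change in the share of a cell type cannot be told apart.

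**Figure D1:**
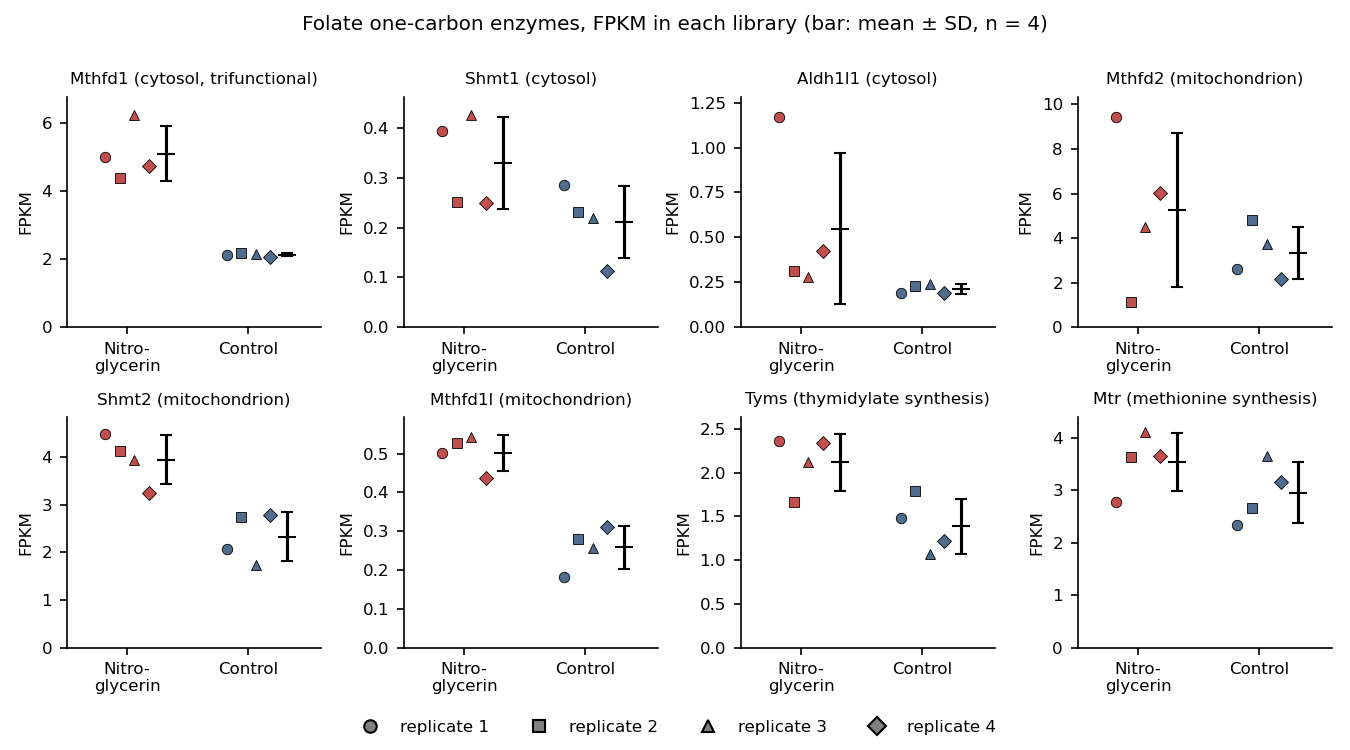
FPKM of each enzyme in each library (vertical axes, each from 0), nitroglycerin on the left and control on the right; symbols mark the replicate number and black bars the mean ± SD of 4 libraries. The 4 control values of Mthfd1 lie between 2.08 and 2.20 FPKM under nitroglycerin values of 4.39 to 6.25, while Mthfd2 spreads from 1.11 to 9.45 FPKM within the nitroglycerin group.

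Mthfd1 (MSTRG.17596), the cytosolic enzyme that joins formate to tetrahydrofolate and interconverts the bound carbon, read 5.02, 4.39, 6.25 and 4.73 FPKM in the nitroglycerin libraries and 2.12, 2.20, 2.15 and 2.08 FPKM in the controls. The groups were far apart, and as deposited the controls were almost alike. After rescaling the controls read 2.86, 2.20, 2.36 and 2.30 FPKM and the nitroglycerin libraries 4.33, 4.11, 5.26 and 3.89 FPKM. As deposited, means were 5.10 ± 0.811 FPKM with nitroglycerin and 2.14 ± 0.0488 FPKM in controls (SD, n = 4 each), a ratio of 2.39. On the log2(FPKM + 1) scale the difference was 0.95 (SE 0.093), which was 0.66 above the median of all tested rows, and 0.65 (SE 0.098) after rescaling. Mthfd1 had the largest such difference of the 8 enzymes under both scalings.

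The other cytosolic enzymes were sparse. Shmt1 (MSTRG.3140), the cytosolic serine hydroxymethyltransferase, read 0.393, 0.251, 0.425 and 0.249 FPKM in nitroglycerin libraries and 0.284, 0.231, 0.219 and 0.112 FPKM in controls. The groups overlapped, with nitroglycerin replicates 1 and 3 above every control. The difference was 0.13 (SE 0.067) on the log2(FPKM + 1) scale, and 0.047 (SE 0.075) after rescaling. At these levels the mean depth over the transcript, inferred as FPKM times aligned gigabases, was 1.69 to 3.57 reads per base with nitroglycerin and 0.838 to 2.33 in controls, which limits how firmly a difference can be read.

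Aldh1l1 (MSTRG.14890), which oxidises 10-formyltetrahydrofolate to carbon dioxide and free tetrahydrofolate, read 1.17, 0.314, 0.282 and 0.422 FPKM in nitroglycerin libraries and 0.189, 0.230, 0.243 and 0.191 FPKM in controls. The groups did not overlap, but nitroglycerin replicate 1 carried most of the difference: the nitroglycerin mean was 0.547 ± 0.420 FPKM (SD, n = 4) with it and 0.339 ± 0.0733 FPKM (SD, n = 3) without it, against 0.213 ± 0.0276 FPKM in controls (SD, n = 4), ratios of 2.57 and 1.59. On the log2(FPKM + 1) scale the difference was 0.32 (SE 0.18), 0.22 (SE 0.16) after rescaling, where the groups overlapped, 0.14 without that library and 0.089 with the fat-marker score as a covariate. The same library held 15.0 FPKM of Adipoq, the fat hormone adiponectin, against 0.417 to 1.80 FPKM in the other nitroglycerin libraries and 0.0965 to 0.796 FPKM in controls. It also held 11.5 FPKM of Ucp1, the uncoupling protein of brown fat. Control replicate 1 held 5.10 FPKM of Ucp1, and Aldh1l1 in that control was the lowest of the 8. The part of fat tissue in the Aldh1l1 difference was not tested. All 10 adipocyte markers and 6 of 7 brown adipocyte markers had a higher mean with nitroglycerin, as did 86.6% of all tested rows. Outside nitroglycerin replicate 1 the adipocyte sums overlapped the controls, at 23.6 to 29.8 FPKM against 9.57 to 30.2 FPKM. After rescaling the 3 tested brown adipocyte markers were below 0 and the 5 tested adipocyte markers above 0. The Aldh1l1 difference is given above without nitroglycerin replicate 1 and beside the covariate.

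**Figure D2:**
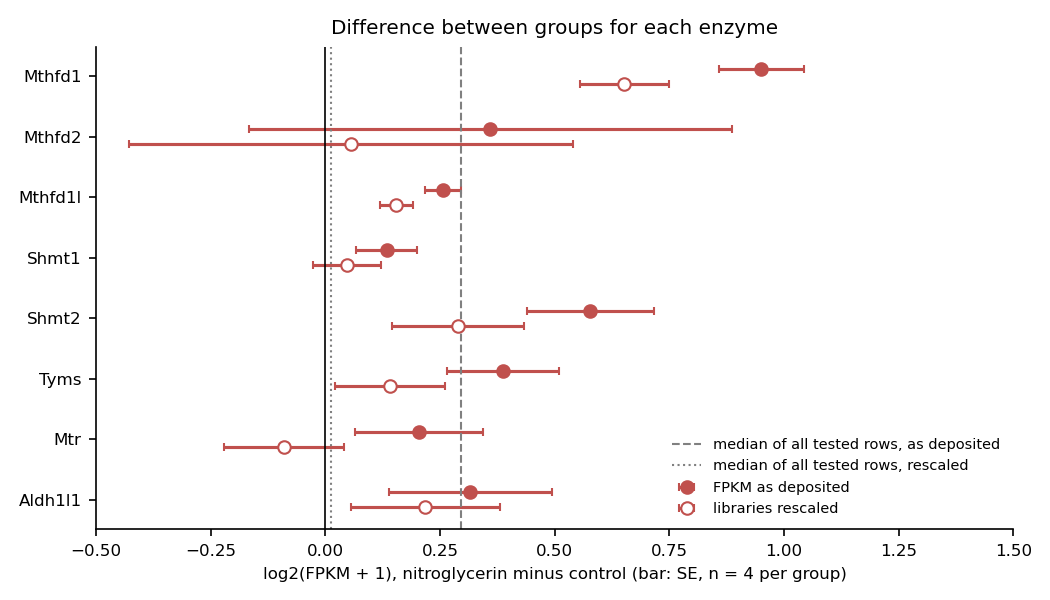
Difference between groups in log2(FPKM + 1), nitroglycerin minus control, for each enzyme (bars: SE, n = 4 per group), with FPKM as deposited (filled) and after rescaling of the libraries (open); the dashed and dotted lines mark the median of all 12977 tested rows under each scaling. Mthfd1 lies farthest right at 0.95 and 0.65, and Mtr moves from 0.20 to -0.090 between the scalings.

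Among the mitochondrial enzymes, Shmt2 (MSTRG.18638), which supplies most serine-derived carbon in many cells, read 4.48, 4.12, 3.93 and 3.25 FPKM in nitroglycerin libraries and 2.07, 2.73, 1.73 and 2.78 FPKM in controls. The lowest nitroglycerin library was above the highest control as deposited, and the groups overlapped after rescaling. Its difference was 0.58 (SE 0.14) on the log2(FPKM + 1) scale, and 0.29 (SE 0.14) after rescaling.

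Mthfd1l (ENSRNOG00000019582), the mitochondrial formyltetrahydrofolate synthetase, read 0.500, 0.527, 0.543 and 0.436 FPKM with nitroglycerin and 0.183, 0.281, 0.256 and 0.312 FPKM in controls. The groups were separate as deposited and after rescaling, at an inferred depth of 2.95 to 4.55 reads per base with nitroglycerin and 1.50 to 2.49 in controls. The ratio of means was 1.94, while the difference on the log2(FPKM + 1) scale was only 0.26 (SE 0.039), since the added 1 exceeds the values themselves, and 0.15 (SE 0.037) after rescaling.

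Mthfd2 (MSTRG.14786), the mitochondrial dehydrogenase and cyclohydrolase, which is scarce in most adult tissues and abundant in dividing cells, read 9.45, 1.11, 4.50 and 6.04 FPKM with nitroglycerin and 2.61, 4.80, 3.72 and 2.18 FPKM in controls. It held both the highest and, apart from control replicate 3 of Tyms, the lowest value of any tested enzyme: nitroglycerin replicate 1 was at the top and replicate 2 below every control. The highest nitroglycerin library was 8.49 times the lowest, against 2.20 times among controls. The difference was 0.36 (SE 0.53), and 0.055 (SE 0.48) after rescaling, so it was smaller than its error. Leaving out 1 library moved it between 0.043 (without nitroglycerin replicate 1) and 0.81 (without nitroglycerin replicate 2), and with the fat-marker score as a covariate it was -0.053. Gcsh, the carrier protein of the mitochondrial glycine cleavage system, ranked the nitroglycerin libraries in the same order, at 5.71, 1.25, 3.36 and 5.39 FPKM, and was close to even among controls at 2.86 to 3.33 FPKM (limma adjusted p between groups = 0.736).

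Promoter sequence was at hand for 7 of the 8 genes in RefSeq (build GRCr8, from 250 bases before to 50 bases after the annotated start). The sequences of the serine hydroxymethyltransferase pair and of Mthfd1l are shown because Shmt2 and Mthfd1l were the mitochondrial enzymes with separate groups as deposited, while Shmt1 is the cytosolic counterpart of Shmt2. They lie at chr7:65249518-65249817, minus strand (Shmt2), chr1:42849174-42849473, plus strand (Mthfd1l) and chr10:45990292-45990591, minus strand (Shmt1). Capitals mark exact matches to any of 5 motifs searched on both strands: the Atf4-C/EBP composite TGATGCAA, the E-box CACGTG, the E2F motifs TTTCCCGC and TTTGGCGC, and the Sp1 motif GGGGCGGGG.
Shmt2: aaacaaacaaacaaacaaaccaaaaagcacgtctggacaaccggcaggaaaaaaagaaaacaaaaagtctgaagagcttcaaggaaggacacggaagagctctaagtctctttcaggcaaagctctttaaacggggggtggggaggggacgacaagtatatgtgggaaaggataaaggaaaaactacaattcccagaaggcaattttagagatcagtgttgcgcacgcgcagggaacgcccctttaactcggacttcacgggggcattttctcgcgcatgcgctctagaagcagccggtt
Mthfd1l: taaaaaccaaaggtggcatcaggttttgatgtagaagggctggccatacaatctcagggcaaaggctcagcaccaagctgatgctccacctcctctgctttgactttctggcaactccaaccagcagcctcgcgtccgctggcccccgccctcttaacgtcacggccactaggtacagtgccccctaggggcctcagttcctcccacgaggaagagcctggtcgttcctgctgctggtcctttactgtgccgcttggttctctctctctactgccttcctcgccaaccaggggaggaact
Shmt1: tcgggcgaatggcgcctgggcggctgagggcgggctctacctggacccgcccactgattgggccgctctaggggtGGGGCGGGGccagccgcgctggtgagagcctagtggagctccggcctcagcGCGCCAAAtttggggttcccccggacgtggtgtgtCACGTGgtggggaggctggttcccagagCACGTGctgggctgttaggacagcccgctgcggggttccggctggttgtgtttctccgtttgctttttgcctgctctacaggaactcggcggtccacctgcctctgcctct

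The Shmt1 window held 1 Sp1 motif (in 9.73% of 33469 RefSeq promoters), 1 E2F motif TTTGGCGC, read as GCGCCAAA on this strand (0.493% of promoters), and 2 E-boxes (6.42% of promoters), with no overlap between them. The windows of Shmt2, Mthfd1l, Mthfd2, Mtr and Aldh1l1 held none of the 5, and the composite TGATGCAA, present in 0.795% of promoters, and TTTCCCGC, present in 0.974%, were in none of the 7. These are matches of letters in a short window of another build than the one named for the libraries, and say nothing of binding.

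Tyms (MSTRG.21570), which makes thymidylate for DNA synthesis, read 2.36, 1.66, 2.12 and 2.34 FPKM with nitroglycerin and 1.48, 1.79, 1.07 and 1.22 FPKM in controls. The nitroglycerin libraries lay above every control except for replicate 2, which was under control replicate 2. The difference was 0.39 (SE 0.12) on the log2(FPKM + 1) scale, and 0.14 (SE 0.12) after rescaling. An assembled row with the same symbol and no annotated transcript read 1.85, 1.21, 1.53 and 1.96 FPKM with nitroglycerin and 1.07 to 1.75 FPKM in 3 controls, and was listed at 0 in control replicate 4; summing both rows moved the Tyms difference to 0.51.

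The Tyms promoter (chr9:120776034-120776333, minus strand) is shown because it and that of Shmt1 were the 2 of 7 with an E2F motif, TTTGGCGC, in capitals.
Tyms: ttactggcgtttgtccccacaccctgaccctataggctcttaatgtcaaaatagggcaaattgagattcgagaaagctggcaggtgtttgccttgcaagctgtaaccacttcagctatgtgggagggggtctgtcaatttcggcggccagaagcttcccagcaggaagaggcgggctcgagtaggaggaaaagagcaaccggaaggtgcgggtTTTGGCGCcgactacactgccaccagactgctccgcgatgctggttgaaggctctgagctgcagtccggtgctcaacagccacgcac

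Genes of the cell cycle were read beside Tyms, from a list of 16. The 4 that passed the filter were the replication clamp gene Pcna and the helicase genes Mcm2, Mcm4 and Mcm7. All had a higher mean with nitroglycerin, as did 86.6% of all tested rows, and none passed the test over all rows (limma, 0 called). At an unadjusted p under 0.05 by limma 3 were higher (34.1% of all tested rows were) and 0 lower. After rescaling 3 were above 0 and 1 below, with 0 at an unadjusted p under 0.05. Pcna stood at 6.03 ± 0.159 FPKM with nitroglycerin and 4.35 ± 1.04 FPKM in controls (SD, n = 4 each; limma adjusted p = 0.0983, and 0.754 after rescaling). Mcm2 stood at 1.65 ± 0.332 and 0.901 ± 0.190 FPKM in the same order (limma adjusted p = 0.0788, and 0.450 after rescaling). Mcm4 averaged 2.29 ± 0.497 and 1.59 ± 0.317 FPKM (limma adjusted p = 0.133). Mcm7 averaged 3.20 ± 0.269 and 2.90 ± 0.477 FPKM (limma adjusted p = 0.483).

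Over the 16 genes, 7 had a higher and 9 a lower mean with nitroglycerin, and 4 of them lay below every control in every nitroglycerin library. Top2a, the topoisomerase of dividing cells, read 0.0584, 0.0680, 0.0211 and 0.0303 FPKM with nitroglycerin and 0.196, 0.527, 0.377 and 0.435 FPKM in controls. Cdk1, the mitotic kinase, read 0.144, 0.0473, 0.0573 and 0.0508 FPKM with nitroglycerin and 0.222, 0.827, 0.419 and 0.312 FPKM in controls. These libraries did not overlap, nor did those of Mki67 (0.210 ± 0.0554 FPKM with nitroglycerin and 0.518 ± 0.183 FPKM in controls) or Cenpf (listed at 0 in nitroglycerin replicate 2, at most 0.0236 FPKM in the others, and 0.0982 to 0.265 FPKM in controls). Of all rows under the filter, 0.738% had every nitroglycerin library below every control, a share not matched for level. The 4 genes were picked out after their values were seen. All 4 were under the filter and therefore outside the test; in a fit with no filter none passed over all rows (limma adjusted p from 0.0884 for Top2a to 0.146 for Mki67, each with an unadjusted p under 0.05). The differences on the log2(FPKM + 1) scale were lower after rescaling too, at -0.45 for Top2a and -0.47 for Cdk1. The inferred depth of Top2a was 0.177 to 0.538 reads per base with nitroglycerin and 1.60 to 4.67 in controls.

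**Figure D3:**
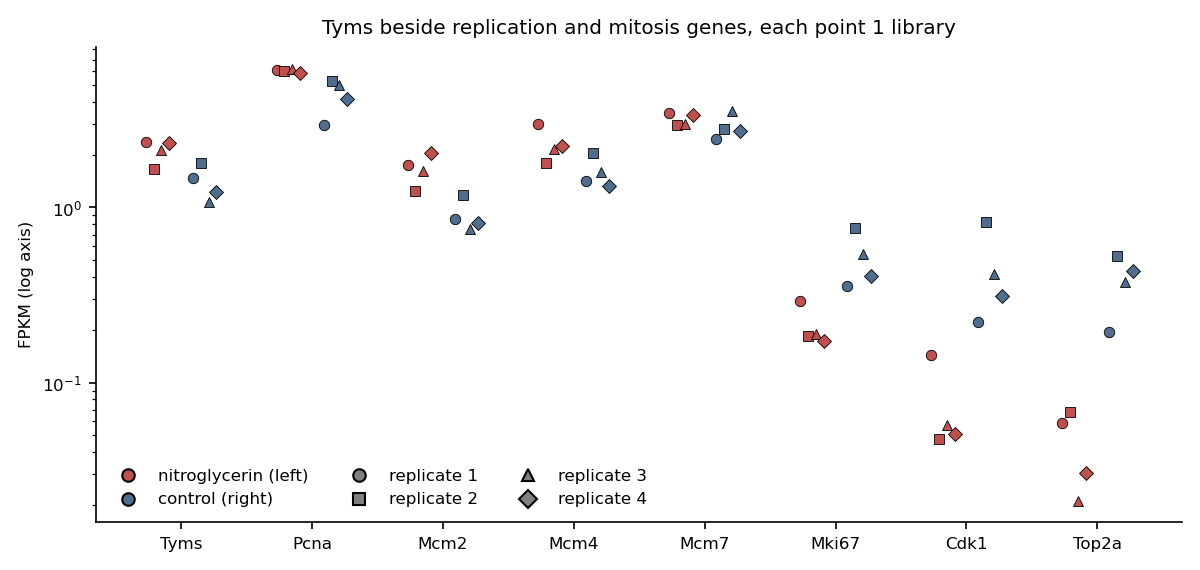
FPKM of Tyms and of 7 cell cycle genes in each library (vertical log axis), nitroglycerin at the left and control at the right of each pair; symbols mark the replicate number. Tyms, Pcna and Mcm2 lie mostly higher with nitroglycerin, whereas every nitroglycerin library of Mki67, Cdk1 and Top2a lies below every control.

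Mtr (MSTRG.8781), the cobalamin-dependent methionine synthase, had the smallest ratio of means of the 8, 1.20. It read 2.78, 3.63, 4.10 and 3.65 FPKM with nitroglycerin and 2.33, 2.66, 3.65 and 3.16 FPKM in controls, and the groups overlapped. The difference of 0.20 (SE 0.14) lay below the median of all tested rows, and it was -0.090 (SE 0.13) after rescaling and -0.10 after quantile normalization, so its direction depends on the scaling.

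Mtrr, the reductase that restores inactive methionine synthase, is not among the 8 and rose. It read 4.37, 3.24, 4.02 and 4.63 FPKM with nitroglycerin and 1.77, 2.04, 1.84 and 1.90 FPKM in controls, without overlap. The log2(FPKM + 1) difference was 0.80 (SE 0.11, limma adjusted p = 0.0413), and 0.52 (SE 0.086, limma adjusted p = 0.0831) after rescaling. With 1 library left out, limma called it in 2 of 8 fits, those without control replicate 2 and without nitroglycerin replicate 2, and its adjusted p ran from 0.0306 to 0.113. Over all alternatives that tested it the difference stayed between 0.51 and 1.06, and the limma adjusted p ran from 0.0204 to 0.128.

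Ratios of transcripts within a library do not depend on how libraries are scaled, and 9 were computed, with no test. The pairs were chosen with the group differences known, and the share of other gene pairs that separate was not computed. Mthfd1 had the largest log2 difference of the 8 enzymes, Mtr the smallest ratio of means, and Mtrr was the called pathway gene. The gaps in Mthfd1/Mtr and Mtrr/Mtr follow from those values and are no further support. Mthfd1/Mtr was 1.46 ± 0.266 with nitroglycerin and 0.745 ± 0.148 in controls (SD, n = 4 each), without overlap (1.21 to 1.80 against 0.588 to 0.909). Mtrr/Mtr was 1.18 ± 0.306 and 0.659 ± 0.128 in the same order, also without overlap. Mthfd1/Tyms ran from 2.02 to 2.95 with nitroglycerin and from 1.23 to 2.00 in controls, which leaves a narrow gap. The ratio between compartments overlapped: Mthfd1/Mthfd1l was 10.2 ± 1.38 and 8.61 ± 2.10, Mthfd1/Shmt2 was 1.31 ± 0.256 and 0.953 ± 0.225, and Shmt2/Shmt1 was 12.5 ± 3.04 and 13.0 ± 8.17, nitroglycerin first. Thus Shmt2 exceeded Shmt1 by 7.28 to 24.8 times in all 8 libraries.

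**Figure D4:**
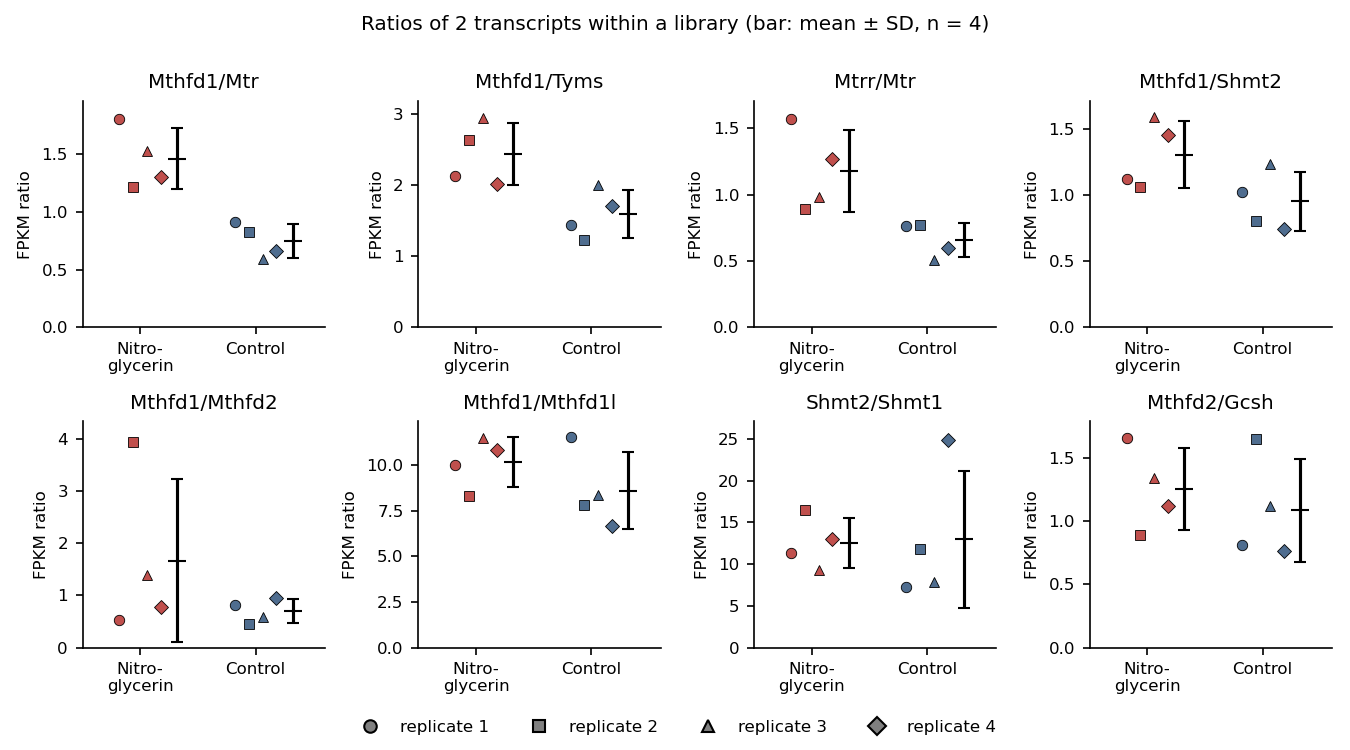
Ratios of the FPKM of 2 transcripts within each library (vertical axes from 0), nitroglycerin left and control right, with symbols for the replicate number and black bars for mean ± SD of 4 libraries. The groups are separate for Mthfd1/Mtr, Mthfd1/Tyms and Mtrr/Mtr and overlap for the other 5 ratios shown.

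By level, the order with nitroglycerin was Mthfd2, Mthfd1, Shmt2, Mtr, Tyms, Aldh1l1, Mthfd1l and Shmt1, and in controls Mthfd2, Mtr, Shmt2, Mthfd1, Tyms, Mthfd1l, Aldh1l1 and Shmt1. Neighbours from Mthfd2 down to Mtr overlapped in range with nitroglycerin, as did those from Mthfd2 down to Mthfd1 in controls. Tyms was separate from both of its neighbours in either group, and within a group no library of the 3 sparse enzymes reached Tyms. The median of all tested rows was 3.49 FPKM with nitroglycerin and 2.64 FPKM in controls, so the enzymes are of middling to low abundance in aorta. Mthfd1 ranked 2 of 8 with nitroglycerin and 4 of 8 in controls.

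By root mean square distance between mean-centred log2(FPKM + 1) values over the 8 libraries, the rows nearest to Mthfd1 among 11331 with a symbol were Nfu1 (0.107), Nat14 (0.118), Osmr (0.123), Creld2 (0.130) and Esam (0.140), against a median distance of 0.41. Mthfd1 varied mainly between the groups, so a row near it shares that group difference by selection. Nothing is read from the group means of these rows. Nfu1, a scaffold of mitochondrial iron-sulfur proteins, stood at 4.38 ± 0.819 FPKM with nitroglycerin and 2.05 ± 0.109 FPKM in controls (SD, n = 4 each), close to Mthfd1 in level too. Osmr, the oncostatin M receptor, stood at 3.84 ± 0.638 and 1.75 ± 0.285 FPKM in the same order, and Esam, an endothelial adhesion molecule, at 8.23 ± 1.51 and 3.90 ± 0.281 FPKM. Of 9 endothelial markers with a row, 8 had a higher mean with nitroglycerin, as did 86.6% of all tested rows. Their summed FPKM was 66.7 to 77.5 with nitroglycerin and 38.2 to 62.0 in controls, without overlap as deposited. After rescaling the sums were 61.8 to 65.2 with nitroglycerin and 42.2 to 74.7 in controls, which overlapped. Eng, the endothelial TGF-beta coreceptor, stood at 17.2 ± 1.37 FPKM with nitroglycerin and 11.1 ± 0.693 FPKM in controls (SD, n = 4 each). Esam and Eng were the 2 of 8 tested endothelial markers called by limma (adjusted p = 0.0413 and 0.0492), against 1.29% of all tested rows called higher. Neither was called after rescaling (limma adjusted p = 0.211 and 0.459). Since Esam was also picked as a row near Mthfd1, its call is no further support. The part of endothelial RNA in the Mthfd1 difference was not tested.

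Around the 8 enzymes, 8 lists of neighbouring pathways held 100 further genes with a row, of which 63 passed the filter. Mtrr was the 1 gene of 63 called (1.35% of all rows). On the log2(FPKM + 1) scale 58 had a higher mean (92.1%, against 86.6% of all tested rows) and 5 a lower one. The median difference was 0.36, against 0.30 over all rows. After rescaling none was called by limma. At an unadjusted p under 0.05 by limma, 7 were higher (11.1%, against 5.5% of all tested rows) and 6 lower (836 of all 12977 tested rows were). Above 0 were 39 and below 0 were 24, against 6796 and 6181 of all tested rows. The median was 0.089, against 0.012 over all rows. As deposited, 24 of the 63 (38.1%) had every nitroglycerin library above every control, against 24.2% of all tested rows, and 33 (52.4%) were higher at an unadjusted p under 0.05 by limma, against 34.1% of all tested rows. After rescaling 5 of the 63 had that layout, against 3.78% of all tested rows. Of the genes named for a high mean in their list, Mcm7, Fpgs, Gcsh, Tcn2, Impdh2, Cmpk1, Atf5 and Vldlr had a higher mean as deposited and a difference below 0 after rescaling, from -0.34 for Tcn2 to -0.13 for Impdh2. Dld, Sardh, Tymp and Gmps lay between 0.0060 and 0.040 after rescaling. The shares of all tested rows given here also stand behind the counts of each list below.

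Among 11 tested genes of folate handling other than the 8 enzymes, 9 had a higher mean (81.8%, against 86.6% of all tested rows). Mtrr alone was called. After rescaling 6 were above 0 and 5 below. Fpgs, which adds the glutamate tail that keeps folate in the cell, stood at 4.49 ± 0.906 FPKM with nitroglycerin and 4.37 ± 1.13 FPKM in controls (SD, n = 4 each; limma adjusted p = 0.885). Folr2, the folate receptor of macrophages, stood at 3.40 ± 0.834 and 1.60 ± 0.873 FPKM in the same order (limma adjusted p = 0.0918, and 0.526 after rescaling). Of 9 macrophage markers with a row, 8 had a higher mean with nitroglycerin (88.9%, against 86.6% of all tested rows). After rescaling 6 were above 0 and 3 below. Their summed FPKM overlapped, at 74.9 to 141 with nitroglycerin and 58.7 to 122 in controls. Cd163, the haemoglobin scavenger receptor of macrophages, rose by limma at an adjusted p of 0.0492 (0.160 with rescaled libraries), with 4.92 ± 1.48 and 1.91 ± 0.194 FPKM.

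Of 6 tested genes of serine and glycine, 5 had a higher mean (83.3%, against 86.6% of all tested rows) and 0 were called by limma. At an unadjusted p under 0.05 by limma 3 were higher (50%, against 34.1% of all tested rows). After rescaling 4 were above 0 and 2 below, with 1 higher at an unadjusted p under 0.05. The serine carrier gene Slc1a4 stood at 5.38 ± 1.36 FPKM with nitroglycerin and 2.91 ± 0.693 FPKM in controls (SD, n = 4 each; limma adjusted p = 0.0650, and 0.366 after rescaling). Dld, the lipoamide dehydrogenase shared by glycine cleavage and other complexes, stood at 7.75 ± 1.12 and 5.80 ± 0.775 FPKM in the same order (limma adjusted p = 0.104). Phgdh, the first enzyme of serine synthesis, stood at 2.80 ± 0.823 and 2.82 ± 0.352 FPKM (limma adjusted p = 0.903).

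Of 10 tested genes of the methionine cycle and cobalamin handling, all had a higher mean, as did 86.6% of all tested rows, and 0 were called. At an unadjusted p under 0.05 by limma 5 were higher (50%, against 34.1% of all tested rows). After rescaling 6 were above 0 and 4 below, with 2 higher and 1 lower at an unadjusted p under 0.05. Mat2a, which makes S-adenosylmethionine, stood at 15.5 ± 1.27 FPKM with nitroglycerin and 9.60 ± 2.19 FPKM in controls (SD, n = 4 each; limma adjusted p = 0.0615, and 0.280 after rescaling). Lmbrd1, the lysosomal cobalamin exporter, stood at 8.67 ± 1.10 and 5.81 ± 0.937 FPKM in the same order (limma adjusted p = 0.0648), and Tcn2, the cobalamin carrier transcobalamin, at 10.6 ± 1.23 and 10.5 ± 1.84 FPKM (limma adjusted p = 0.937).

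Choline oxidation, which also feeds carbon to folate, had 3 tested genes, all without overlap between groups as deposited (24.2% of all tested rows) and none called. All 3 were higher at an unadjusted p under 0.05 by limma, against 34.1% of all tested rows. After rescaling 1 of the 3 was without overlap (3.78% of all tested rows) and 1 was higher at an unadjusted p under 0.05 by limma (5.5% of all tested rows). Pipox, the pipecolate and sarcosine oxidase, stood at 3.21 ± 1.58 FPKM with nitroglycerin and 1.01 ± 0.301 FPKM in controls (SD, n = 4 each; limma adjusted p = 0.0615, and 0.276 after rescaling). Aldh7a1, an aldehyde dehydrogenase that can act on betaine aldehyde, stood at 12.2 ± 0.892 and 8.03 ± 1.04 FPKM in the same order (limma adjusted p = 0.0573, and 0.516 after rescaling). Sardh, the sarcosine dehydrogenase, stood at 7.59 ± 0.862 and 5.60 ± 0.488 FPKM (limma adjusted p = 0.0756). Chdh and Dmgdh, also in this list, were under the filter, at 0.0333 and 0.00298 FPKM with nitroglycerin and 0.0113 and 0.0148 FPKM in controls.

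All 11 tested genes of purine synthesis had a higher mean of log2(FPKM + 1), as did 86.6% of all tested rows, and 0 were called. At an unadjusted p under 0.05 by limma 6 were higher (54.5%, against 34.1% of all tested rows). Impdh2, the guanylate branch enzyme, stood at 20.3 ± 0.911 FPKM with nitroglycerin and 17.1 ± 1.57 FPKM in controls (SD, n = 4 each, limma adjusted p = 0.170). After rescaling 7 of the 11 were above 0 and 4 below, with 1 higher at an unadjusted p under 0.05. Paics, a bifunctional enzyme of the pathway, stood at 10.2 ± 1.70 and 7.13 ± 1.62 FPKM in the same order (limma adjusted p = 0.115), and Gmps, the GMP synthetase, at 8.77 ± 0.763 and 6.74 ± 1.21 FPKM (limma adjusted p = 0.121). All 7 tested genes of thymidylate and deoxynucleotides had a higher mean, as did 86.6% of all tested rows, and 0 were called. At an unadjusted p under 0.05 by limma 6 were higher (85.7%, against 34.1% of all tested rows). After rescaling 6 were above 0 and 1 below, with 0 higher and 1 lower at an unadjusted p under 0.05 by limma. Dtymk, the thymidylate kinase that follows Tyms, averaged 3.64 ± 0.540 and 2.49 ± 0.523 FPKM (limma adjusted p = 0.0909). Tymp, the thymidine phosphorylase, averaged 10.04 ± 1.06 and 7.47 ± 0.384 FPKM (limma adjusted p = 0.0714). Cmpk1, a nucleoside monophosphate kinase, averaged 9.75 ± 0.212 and 8.86 ± 0.951 FPKM (limma adjusted p = 0.397). Rrm2, the small ribonucleotide reductase subunit of dividing cells, was under the filter at 0.135 ± 0.122 and 0.378 ± 0.246 FPKM.

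Atf4 is a transcription factor known to induce Mthfd2, Shmt2 and serine synthesis genes under amino acid or mitochondrial stress. Of 11 tested genes of Atf4 and its targets, 9 had a higher mean log2 value (81.8%, against 86.6% of all tested rows). A lower one was seen in 2, and 0 were called. At an unadjusted p under 0.05 by limma, Ddit3, Slc3a2 and Slc7a5 were higher (27.3%, against 34.1% of all tested rows) and Nupr1 lower. After rescaling 4 were above 0 and 7 below, with a median of -0.10. Rescaled differences were 0.39 for Ddit3, 0.19 for Slc3a2, 0.69 for Slc7a5 and -0.72 for Nupr1. Atf4 itself averaged 5.62 ± 2.14 FPKM with nitroglycerin and 5.75 ± 4.98 FPKM in controls (SD, n = 4 each, limma adjusted p = 0.795). Atf5 stood at 53.5 ± 9.17 FPKM with nitroglycerin and 50.1 ± 6.54 FPKM in controls (SD, n = 4 each; limma adjusted p = 0.705). The amino acid transporter chain gene Slc3a2 stood at 22.8 ± 3.12 and 15.3 ± 2.25 FPKM in the same order (limma adjusted p = 0.0651), and Vldlr, a lipoprotein receptor, at 16.4 ± 5.16 and 14.0 ± 3.92 FPKM (limma adjusted p = 0.566).

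**Figure D5:**
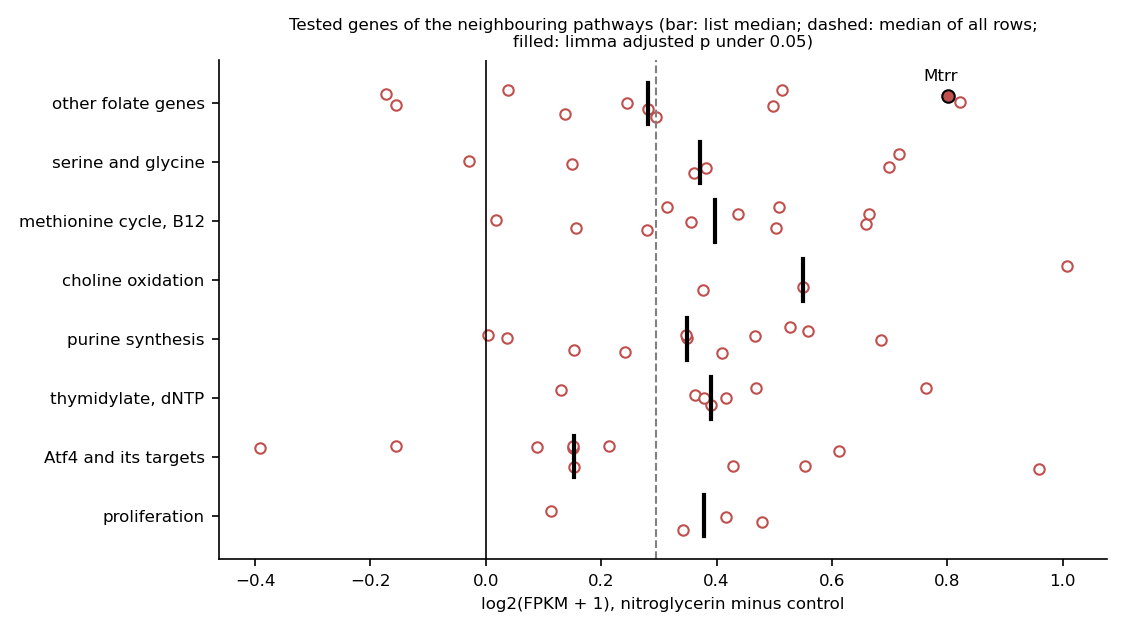
Difference between groups in log2(FPKM + 1), nitroglycerin minus control, for each tested gene of 8 neighbouring lists, with the list median as a black bar and the median of all tested rows (0.30) as a dashed line; vertical scatter within a list has no meaning. Mtrr, at 0.80, is the 1 filled point, a limma adjusted p under 0.05, and 7 of the 8 lists have points on both sides of the dashed line.

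None of the 4686 predicted long non-coding transcripts carried the symbol of one of the 8 enzymes.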

How the data were processed

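The 8 aortic libraries were made from total RNA depleted of ribosomal RNA, per the labels' protocols, whose wording also mentions an adipose type. Tools listed in the submitters' processing notes are StringTie 1.3.0, HISAT2 2.0 and Bowtie 0.12.2; the builds mm8 and Rnor_6.0 are listed with no role for either. The authors deposited FPKM per gene row, and for predicted lncRNAs FPKM, coverage per base as a signal, and CPC and CNCI scores, per the file headers. The scores were not used. The ratio of deposited coverage to FPKM was constant within a library and was taken as aligned gigabases; no counts of reads were used, so no counting intervals are given. FPKM are relative, and an exact 0 can be a failed estimate.

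Values were fitted as log2(FPKM + 1) with limma 3.58.1 in R 4.3.3 (mean-variance trend, Benjamini-Hochberg over 12977 rows that reached 1 FPKM in 4 or more libraries). Fold changes on this scale understate those of low genes. SE of the 8 enzymes come from the group variances. Rescaling divided libraries by median-of-ratios factors (1.07 to 1.22 with nitroglycerin, 0.742 to 0.996 in controls). Python 3.11.15 with pandas 2.3.3 and matplotlib 3.10.9 did the rest. The fit was tested on simulated data. The members and lists were chosen with earlier results of these data known. Named genes were the 8 enzymes, from each list those called and the 3 of highest mean, the 5 rows nearest to Mthfd1, and called markers. Others (Top2a, Cdk1, Mki67, Cenpf, Mcm2, Cbs, Phgdh, Rrm2, Adsl, Mthfd2l, Aldh1l2, Myh11, Lmod1, Myl9, Col1a1, Adipoq, Ucp1, Atf4, Ddit3, Slc7a5, Nupr1, Trib3, Chdh, Dmgdh) were picked after their values were seen. Alternatives covered the pseudocount, filters, scaling, the replicate number as a block, library weights, a fat-marker covariate, annotated rows only, summed rows and each library left out. Of 104 listed pathway genes, 100 had a row; the others were not analysed here.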

Additional observations from a re-analysis of the deposited data

Results flagged for a closer look

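Of 76 sets of 4 replicate values, 5 (6.58%) held a value remote from the remaining 3; by chance about 1 in 20 would. Aldh1l1 read 1.17 FPKM in nitroglycerin replicate 1, against 0.282 to 0.422 in the other nitroglycerin libraries. That library was also remote from the other nitroglycerin libraries in Cdk1, at 0.144 FPKM against 0.0473 to 0.0573, and Mki67, at 0.293 against 0.173 to 0.190. Each was still below every control. This did not hold for the mitotic genes in general: Top2a was higher in nitroglycerin replicate 2, at 0.0680 FPKM against 0.0584 in replicate 1. Vldlr read 8.14 FPKM in control replicate 1, against 15.6 to 16.4 in the other controls. Cbs, which joins serine to homocysteine, read 0.365 FPKM in control replicate 1, against 0.0415 to 0.0539 in the other controls.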

How the results depend on the processing

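The number of rows called depended on most choices. Against 175 as deposited, limma called 1936 with array weights, 828 on annotated rows only, 26 with no filter, 17 under median-of-ratios factors, 15 under quantile normalization, 7 with a pseudocount of 0.1 and 3 once the fat score was a covariate, and 5 (without control or nitroglycerin replicate 4) to 284 (without nitroglycerin replicate 2) with a library left out. The split of calls, 167 higher and 8 lower as deposited, was 4 higher and 13 lower under median-of-ratios factors and 5 higher and 10 lower under quantile normalization. Against 1 pathway gene (Mtrr), the counts were 0 with a pseudocount of 0.1, no filter, either rescaling and the covariate (limma, 34, 41, 13, 14 and 29 at an unadjusted p under 0.05), 2 with the stricter filter (Aldh7a1 and Mat2a, since Mtrr was not tested there), 19 with array weights, 8 on annotated rows, and 0 to 2 with a library left out (2, Adsl and Mtrr, without nitroglycerin replicate 2). With the replicate number as a block, 0 rows and 0 pathway genes passed limma's adjusted threshold, with 4037 and 31 below an unadjusted p of 0.05; same-numbered libraries deviated together in 2 of 4 pairs (correlations across genes of 0.133, -0.0111, -0.0117 and 0.121), so the numbers were not taken as pairs. The median of the 8 enzymes, 0.34, was 0.67 with a pseudocount of 0.1, 0.15 after median-of-ratios rescaling and 0.13 after quantile normalization, and 0.27 to 0.42 with a library left out. Of 18 alternatives, 4 (the 2 filters, the block and annotated rows) cannot move an enzyme's difference of means and 1 (summed rows) moves only Tyms; under the other 13, 6 of the 8 enzymes kept a positive difference, and the exceptions were Mtr (-0.090 and -0.10 after the rescalings) and Mthfd2 (-0.053 with the covariate). The cause was not tested. Low depth limits Mthfd1l, Shmt1, Aldh1l1 and the mitotic genes most.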

Other observations

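Cbs, which condenses serine with homocysteine and so draws on both ends of the pathway, was under the filter and read 0.899, 0.168, 1.42 and 0.971 FPKM with nitroglycerin and 0.365, 0.0471, 0.0539 and 0.0415 FPKM in controls. The groups overlapped through nitroglycerin replicate 2 and control replicate 1, and in a fit with no filter it did not pass over all rows (limma adjusted p = 0.162). Mthfd2l and Aldh1l2, the isozymes of Mthfd2 and Aldh1l1 in the mitochondrion, had a lower mean with nitroglycerin: Mthfd2l, under the filter, stood at 0.154 ± 0.0468 and 0.200 ± 0.0220 FPKM, and Aldh1l2 at 1.91 ± 0.225 and 2.27 ± 0.583 FPKM (nitroglycerin first; SD, n = 4 each; limma adjusted p = 0.446 for Aldh1l2). Aldh1l2 exceeded Aldh1l1 in all 8 libraries.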
